A study of Rattus norvegicus with 8 samples.

Results

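The genes described here are 5 components of the protein synthesis machinery in the rat medial collateral ligament, the band on the inner side of the knee. Eef1a1 and Eef1a2 encode the alpha subunit of elongation factor 1, Eef2 encodes elongation factor 2, Eif4e encodes the mRNA cap-binding initiation factor, and Eif4ebp1 encodes its inhibitor. A probe set is a group of short oligonucleotides on the array, designed to read a transcript. The members are the probe sets whose only gene symbol is that of a member. They number 11 of the 7006 such probe sets, and 5 of the 4736 genes those stand for. By gene there were 2 for Eef1a1, 1 for Eef1a2, 4 for Eef2, 1 for Eif4e and 3 for Eif4ebp1. Each probe set is reported separately, because those of Eef1a1 are known to disagree. Eef1a1 was chosen by its values in loaded healing, against loaded control and against unloaded healing, with that disagreement known, so its values are a description without a p-value.

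The study asked how taking weight off the hind legs alters the healing of a torn ligament. Total RNA from the ligament was measured at 3 weeks on 8 one-colour arrays, 2 in each of 4 groups. Loaded control rats had sham surgery and bore weight, and loaded healing rats had the ligament disrupted on both sides and bore weight. Unloaded control rats had no sham surgery and were suspended by the tail, which lifts the hind legs off the ground. Unloaded healing rats had the ligament disrupted and were suspended from 24 h after the surgery. Sham surgery and loading therefore differ together between the 2 control groups, and their effects cannot be told apart. The labels give no strain, sex or age. Nor do they state if a group's arrays are separate rats, pools or repeats, so the spread behind each p-value may be technical.

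As background, eEF1A carries each aminoacyl-tRNA to the ribosome, and eEF2 then moves the ribosome along the mRNA. eIF4E binds the cap of the mRNA and starts initiation, and 4E-BP1, the product of Eif4ebp1, holds eIF4E back until mTOR kinase phosphorylates it. The mRNAs of Eef1a1 and Eef2 begin with a pyrimidine tract that ribosomal protein mRNAs share, and through it mTOR controls their translation. Eef1a1 is made in most tissues, while Eef1a2 is the form of adult skeletal muscle, heart and nerve cells. Fibroblasts that rebuild a ligament secrete large amounts of collagen, which makes protein synthesis a main task of the tissue.

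Promoter stretches are shown for 3 members, Eef1a1 and Eef2 because the elongation factors carry the differences below, and Eif4e as an initiation factor that did not pass the test. Each is the 80 bases from 100 to 21 bases before the RefSeq transcription start of rat assembly GRCr8, 5′ to 3′ on the gene's strand. Capitals mark matches of TATANAA, the core promoter element bound by TBP, on either strand. In Eef2 and Eif4e they also mark the E-box of Myc family proteins, CACGTG, which reads the same on both strands. No match of the former overlapped the latter. Both motifs were chosen after the sequences were seen. The Eef1a1 stretch lies at chr8:88225090-88225169 on the minus strand, that of Eef2 at chr7:9189259-9189338 on the minus strand, and that of Eif4e at chr2:229740653-229740732 on the plus strand.
Eef1a1: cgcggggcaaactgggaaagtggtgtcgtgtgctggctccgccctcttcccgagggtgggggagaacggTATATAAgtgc
Eef2: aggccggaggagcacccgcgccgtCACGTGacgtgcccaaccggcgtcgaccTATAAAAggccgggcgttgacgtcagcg
Eif4e: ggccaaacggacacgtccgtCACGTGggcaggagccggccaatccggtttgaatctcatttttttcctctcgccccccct

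TATANAA began 31 bases before the start of Eef1a1 and 48 bases before that of Eef2. CACGTG began 76 bases before the start of Eef2, and 80 and 237 bases before that of Eif4e. The window of Eef1a2 held neither motif. Among 33469 RefSeq windows of the 250 bases before a start, 11.6% held TATANAA and 5.59% held CACGTG on either strand. A match is a description of the letters only.

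Both arrays of unloaded control were unlike the other 6. Their Pearson correlations of log2 signal with the other arrays were 0.492 to 0.608, against 0.761 to 0.872 among the other 6. Their 99th percentiles of signal were 5494.1 and 5584.5, against 9218.3 to 11288.6, although array medians ran only from 238.7 to 315.9. The summed signal of 9 ligament fibroblast marker genes came to 3411.2 and 4081.5 in unloaded control, against 53233.7 to 125493.6 elsewhere. Its defining marker Col1a1, a chain of type I collagen, read 699.0 and 763.1 there against 34752.7 to 84665.6 on its brightest probe set, M27207mRNA_s_at. Another Col1a1 probe set, Z78279_at, read 1775.9 and 2426.2 in unloaded control and 2339.8 and 1768.8 in loaded healing, which overlapped. It read 3467.3 to 5622.8 in loaded control and unloaded healing. Of these 2 Col1a1 probe sets, the brightest alone was thus far below all other arrays. At their brightest probe sets, all 9 marker genes were lower in unloaded than in loaded control and 0 were higher. Their median log2 difference was -3.78, against 0.23 over all probe sets tested. Comparisons without the unloaded controls are therefore given beside those that use them.

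Of the 11 probe sets, 10 passed the filter on low signal and entered the test of 5244 probe sets, a linear model fitted with limma. Passing means a Benjamini-Hochberg adjusted p below 0.05 over those 5244. Values are signal intensities, and differences are on the scale of log2(intensity + 45.8). That offset shrinks the differences of dim probe sets. The ± gives limma's standard error, from a spread shared by all 4 groups of 2 arrays. The fit draws that spread toward the spread of probe sets of like signal.

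Eef1a1, the widely made form of eEF1A, gave a different pattern on each of its 2 probe sets. Probe set M81088_at was low on the unloaded controls alone, and probe set rc_AI008852_at was low in loaded healing alone.

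M81088_at read 9545.6 and 7249.5 in loaded control, 9680.1 and 9048.4 in loaded healing, 336.0 and 250.0 in unloaded control, and 10637.1 and 7829.4 in unloaded healing. The unloaded control arrays lay far below the other 6, whose groups overlapped. In order of group mean, loaded healing, unloaded healing and loaded control came first with overlapping neighbours, and unloaded control came last and apart. The difference of unloaded from loaded control was -4.64 ± 0.23, a 24.9-fold lower level, and that of unloaded healing from unloaded control was 4.77 ± 0.23. Without the unloaded controls, loaded healing differed from loaded control by 0.17 ± 0.23 and unloaded healing from loaded healing by -0.04 ± 0.23. Unloaded healing differed from loaded control by 0.13 ± 0.23.

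Other bright probe sets were also low on the unloaded control arrays, where M81088_at was low. Of the 200 probe sets with the highest signal on the other 6 arrays, among which M81088_at ranked 94, 121 were lower by over 1 log2 unit in unloaded than in loaded control, 78 were within 1 unit and 1 was higher by more. Their median difference was -2.64. These 200 were picked by signal on arrays that include loaded control and leave out unloaded control. That choice tilts the count toward lower values in unloaded control, so nothing is read from it. The ligament marker sum was also low on the unloaded control arrays. The part of that sum or of the low bright signal in the Eef1a1 values was not tested. In whole tissue, fewer cells of a type and less RNA per cell cannot be told apart.

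The other Eef1a1 probe set, rc_AI008852_at, read 885.3 and 1036.1 in loaded control and 72.4 and 142.9 in loaded healing. It read 478.4 and 924.9 in unloaded control and 796.1 and 1028.3 in unloaded healing. Only the loaded healing arrays were apart, below the other 6, and all neighbours in the order loaded control, unloaded healing and unloaded control overlapped. Loaded healing differed from loaded control by -2.75 ± 0.45, a 6.72-fold lower level. Unloaded healing differed from loaded healing by 2.67 ± 0.45, a 6.37-fold higher level, and from loaded control by -0.08 ± 0.45. In the unloaded groups, healing differed from control by 0.41 ± 0.45, and the 2 control groups differed by -0.49 ± 0.45.

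RefSeq lists 20 rat pseudogenes named for Eef1a1, 5 for Eef2 and 10 for Eif4e. The probe sequences were not used here, so which copies each probe set reads is uncertain. Because its probe sets disagree, no level is given for Eef1a1 as a whole.

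**Figure D1:**
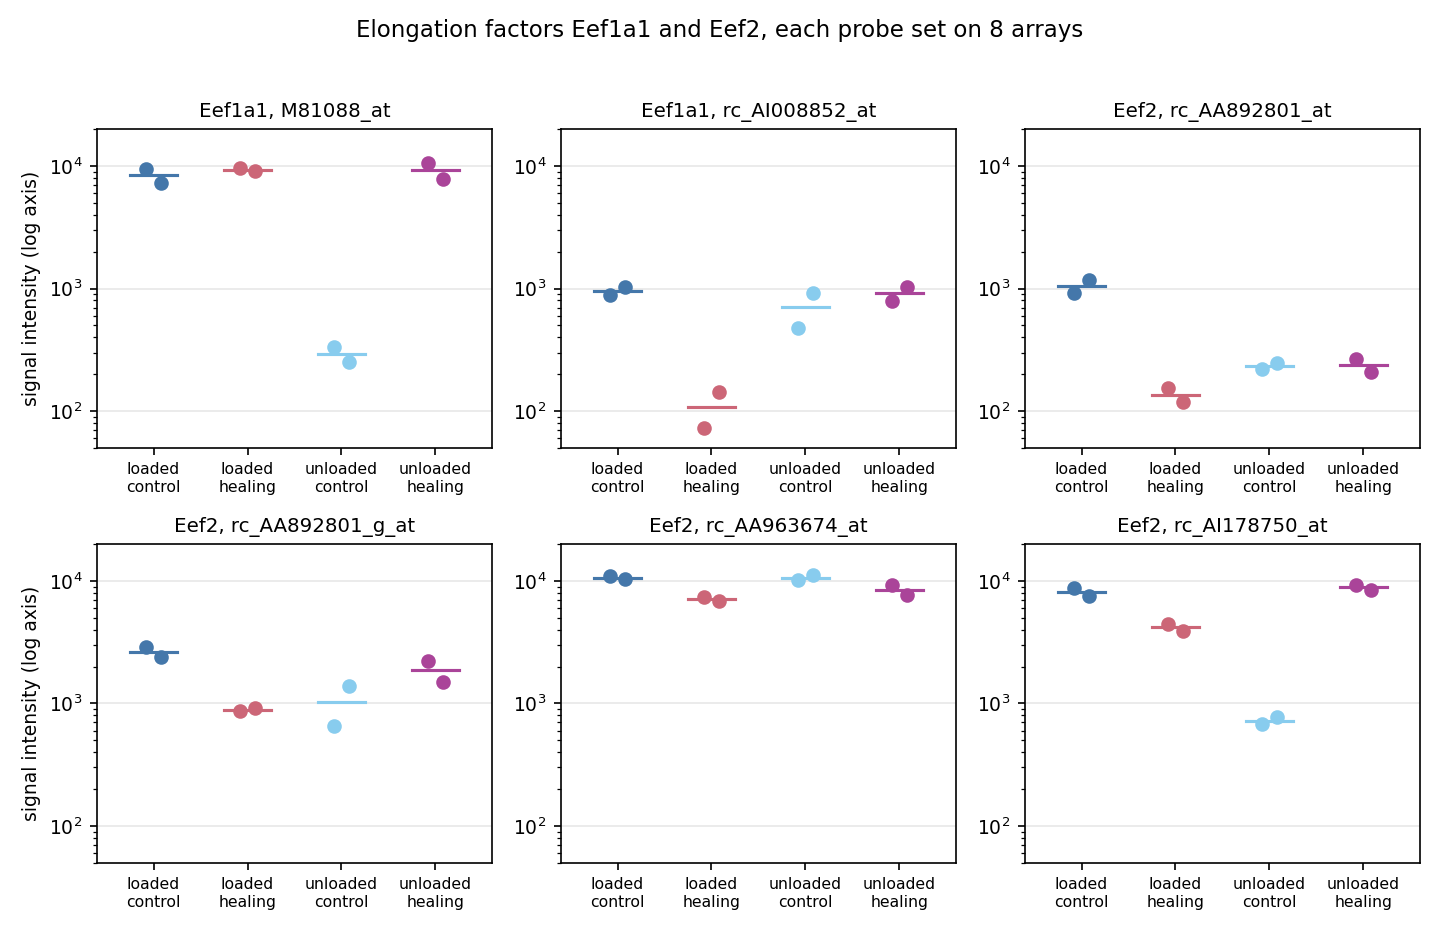
Signal intensity (log axis) of the 2 Eef1a1 and 4 Eef2 probe sets in the 4 groups; points are single arrays and lines are means of 2 arrays. M81088_at and rc_AI178750_at sit lowest on the unloaded controls, while rc_AI008852_at and rc_AA892801_at sit lowest in loaded healing.

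A sum of macrophage markers, though not each marker, was high on the loaded healing arrays, on which rc_AI008852_at was low. The summed signal of 4 macrophage marker genes was 22323 and 24189.2 in loaded healing, against 3349.4 to 6392.1 in the other 3 groups. Lyz2 supplied most of it, at 13978.0 and 16260.4 in the same order. Ctss and Lgals3 were also higher there than on the other 6 arrays, but Cd14 was not. Cd14 read 986.4 and 1391.5 there, while the loaded control arrays gave 1119.2 and 1741.6. Csf1r, C1qb and Itgam missed the filter and were not summed. Of these, only C1qb was higher on both loaded healing arrays. The array's Gapdh 3′ control probe set read 1038.5 and 842.6 in loaded healing against 1871.8 to 2334.6 on the other 6 arrays. The actin 3′ control was low both there (1353.1 and 1596.6) and in unloaded control (1283.9 and 1493.7), against 4393.3 to 5235.2 on the other 4. The ratio of the actin 5′ to 3′ control, a sign of RNA integrity, was 0.964 and 0.634 in unloaded control and 0.237 to 0.529 elsewhere. Their part in the loaded healing and unloaded control values of the members was not tested.

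Eef1a2, the muscle and nerve form, read low in every group. Its probe set M62752_at gave 34.9 and 275.5 in loaded control, 29.3 and 56.2 in loaded healing, 117.1 and 129.0 in unloaded control, and 78.2 and 60.4 in unloaded healing. The loaded control arrays spanned nearly the whole range, and 2 of 8 arrays fell below the offset. The probe set lay at percentile 15.3 of mean signal and missed the filter, so its differences come from the fit without a filter. Loaded healing differed from loaded control by -0.88 ± 0.60 (limma adjusted p = 0.736), and unloaded from loaded control by 0.07 ± 0.60 (0.970). Markers of skeletal muscle were present at the same time, with a summed signal of 10 genes from 5453.8 on an unloaded control array to 19291 on a loaded healing array. The summed signal of 6 nerve markers ran from 3469.6 to 5910.5, highest on the unloaded controls. A low signal of 1 probe set does not show that the transcript was absent.

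Eef2, the translocation factor, was lower in loaded healing than in loaded control on each of its 4 probe sets, and 2 of them passed. Unloaded healing read above loaded healing on each of the 4, and 1 passed. Against the unloaded controls the 4 probe sets disagreed, with differences of unloaded healing from -0.34 to 3.53.

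Probe set rc_AI178750_at read 8780.6 and 7493.5 in loaded control, 4422.6 and 3922.3 in loaded healing, 676.0 and 770.6 in unloaded control, and 9205.2 and 8506.7 in unloaded healing. Unloaded healing and loaded control overlapped, loaded healing lay apart below both, and unloaded control lay apart at the bottom. Loaded healing fell by 0.95 ± 0.19 from loaded control, a 1.94-fold lower level (limma adjusted p = 0.0321). Unloaded healing was 1.08 ± 0.19 above loaded healing, or 2.11-fold (0.0201), and differed from loaded control by 0.12 ± 0.19 (0.998). Both calls ended with median centring, with spike-in scaling, without an intensity trend in the variance, and without any single array of the groups compared (adjusted p from 0.106 to 0.218). The former also ended without a filter (0.0633) and without either unloaded healing array (0.0525 and 0.0540).

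The largest differences of rc_AI178750_at involved the unloaded controls. They fell by 3.41 ± 0.19 log2 units from the loaded controls, a 10.6-fold lower level (limma adjusted p = 5.24e-07), and unloaded healing read 3.53 ± 0.19 above them (3.84e-07). On the other 6 arrays this probe set ranked 131 by signal. That rank puts it among the 200 bright probe sets above. They were picked without the unloaded controls, so nothing is read from this rank.

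Probe set rc_AA963674_at, also of Eef2, did not show that low level. It read 10913.0 and 10393.7 in loaded control, 7350.4 and 6878.2 in loaded healing, 10183.0 and 11092.1 in unloaded control, and 9204.3 and 7618.3 in unloaded healing. The 2 control groups overlapped and loaded healing lay apart at the bottom. Unloaded control differed from loaded control by -0.00 ± 0.16 (limma adjusted p = 0.995), although rank 99 on the other 6 arrays put it among the same bright probe sets. That difference turned to 1.07, with adjusted p = 0.000665, under quantile normalization, which also took unloaded healing against unloaded control from -0.34 to -1.45 (6.5e-05). Loaded healing differed from loaded control by -0.58 ± 0.16 (0.135) and unloaded healing from loaded healing by 0.23 ± 0.16 (0.671), the latter turning to -0.26 under spike-in scaling.

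The other 2 Eef2 probe sets bear the same transcript accession, AA892801, and so share their source. On rc_AA892801_at, loaded control read 911.6 and 1176.3, loaded healing 153.2 and 117.9, unloaded control 220.3 and 247.2, and unloaded healing 263.7 and 207.7. Loaded control lay apart above all other groups, loaded healing lay apart below them, and the unloaded groups overlapped. Loaded healing fell by 2.58 ± 0.47, a 5.99-fold lower level (limma adjusted p = 0.0234), and unloaded control by 1.95 ± 0.47, or 3.87-fold (0.0338). Each of these calls ended without any single array of the groups compared, with adjusted p from 0.106 to 0.177, and with spike-in scaling (0.0510 and 0.0683). Unloaded healing differed from loaded control by -1.95 ± 0.47 without passing (0.362), and it differed from unloaded control by 0.0045 ± 0.47 (0.997).

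On rc_AA892801_g_at, loaded control read 2864.9 and 2414.5, loaded healing 862.9 and 910.9, unloaded control 659.0 and 1379.8, and unloaded healing 2239.6 and 1490.8. The order was loaded control, unloaded healing, unloaded control and loaded healing, and only the last pair overlapped. Unloaded control fell by 1.42 ± 0.35, a 2.67-fold lower level (limma adjusted p = 0.0400), in a group whose arrays differed widely. That call held in 7 of 11 alternative settings and in 3 of the 8 fits that left out an array. Loaded healing differed from loaded control by -1.52 ± 0.35 (0.0677). That difference passed without the unloaded control arrays (0.0251), without either of them (0.0298 and 0.0357), with only the groups compared (0.0239) and with the larger offset (0.0491). Unloaded healing differed from loaded healing by 1.01 ± 0.35 (0.282).

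Eif4e, the cap-binding factor, gave 0 calls in 6 comparisons with limma, and 0 at an unadjusted p below 0.05. Its probe set X83399_at read 320.2 and 236.2 in loaded control, 257.3 and 60 in loaded healing, 259.9 and 236.1 in unloaded control, and 216.6 and 92.1 in unloaded healing. Replicate 2 of each healing group was low, and all neighbours in the order of group means overlapped. Unloaded healing, last in that order, lay apart below unloaded control and below loaded control. Of all probe sets, 33.5% and 14.6% were lower without overlap in those 2 comparisons. Pairwise differences ran from -0.84 ± 0.66 for loaded healing against loaded control (limma adjusted p = 0.745) to 0.09 ± 0.66 for unloaded against loaded healing (0.978). The interaction was 0.22 ± 0.93 (0.960). The difference of unloaded from loaded healing became -0.67 without loaded healing replicate 2. The probe set lay at percentile 40.4 of mean signal, just above the filter, and its standard error was among the widest of the members.

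Eif4ebp1, which encodes the inhibitor of eIF4E, also gave 0 calls, in 18 values from 3 probe sets and 6 comparisons, of which 6 had an unadjusted p below 0.05. Over all 5244 probe sets, 291 to 1004 had such a p in each comparison. On rc_AI178828_i_at, loaded control read 1771.9 and 2316.9, loaded healing 2265.5 and 2116.1, unloaded control 3137.9 and 2865.0, and unloaded healing 2154.4 and 1803.9. The unloaded controls lay apart above the other 3 groups, which overlapped. Their difference from loaded control was 0.55 ± 0.22 (limma adjusted p = 0.222), and that of unloaded healing from them was -0.59 ± 0.22 (0.172). Under quantile normalization these became 1.20 (0.00472) and -1.20 (0.00453), and its interaction passed too, at -1.30 (0.0326). This is the sole member probe set with its highest group mean in unloaded control.

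The remaining 2 Eif4ebp1 probe sets share the accession U05014. On U05014_g_at, loaded control read 868.6 and 901.3, loaded healing 318.5 and 239.2, unloaded control 322.1 and 475.8, and unloaded healing 561.2 and 312.3. Loaded control lay apart above the other groups, with loaded healing at -1.53 ± 0.45 (limma adjusted p = 0.158), unloaded control at -1.09 ± 0.45 (0.239) and unloaded healing at -0.997 ± 0.45 (0.871) against it. On U05014_at, loaded control read 148.8 and 795.4, loaded healing 271.7 and 350.0, unloaded control 280.7 and 280.2, and unloaded healing 410.1 and 114.6. All groups overlapped there, and the spread of the loaded controls covered every other array but unloaded healing replicate 2. Adjusted p-values of U05014_at were 0.871 or more in the 5 pairwise comparisons.

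**Figure D2:**
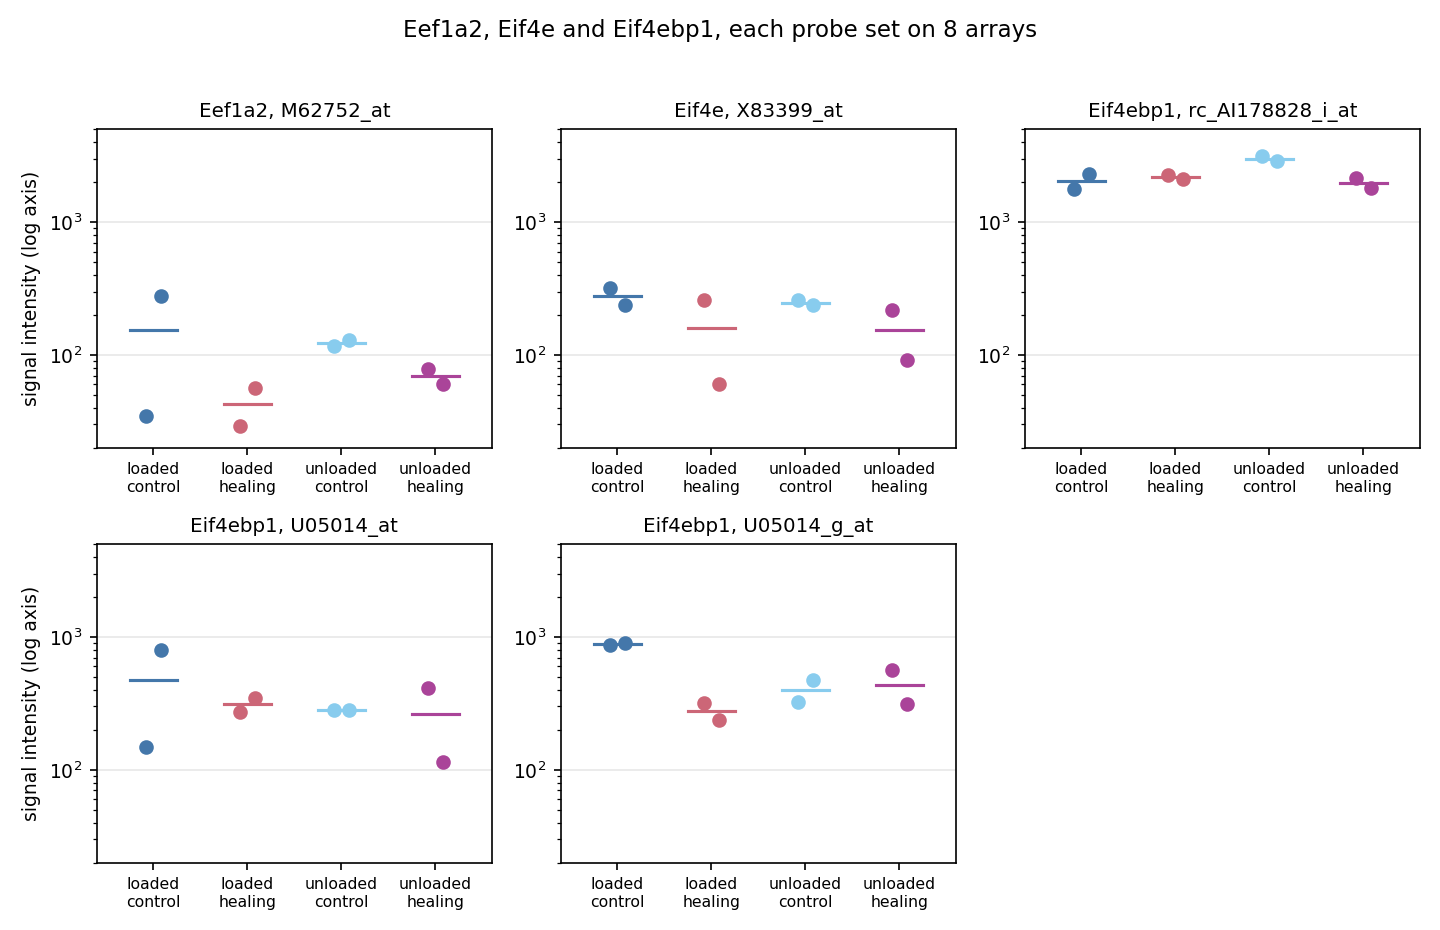
Signal intensity (log axis) of the Eef1a2, Eif4e and 3 Eif4ebp1 probe sets in the 4 groups; points are single arrays and lines are means of 2 arrays. Eef1a2 and U05014_at show replicate spreads as wide as the distance between groups, and rc_AI178828_i_at is highest on the unloaded controls.

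In loaded healing against loaded control, 3 of the 10 probe sets fell and 0 rose. Here and below, Eef1a1 is counted by the same threshold for completeness, as a description. The 3 were Eef1a1 rc_AI008852_at and the Eef2 probe sets rc_AA892801_at and rc_AI178750_at. Over all 5244 probe sets, 0.992% were called lower and 1.03% higher. The median member difference was -0.90 against -0.03 over all probe sets, and 6 members did not overlap between the groups, all lower, against 20.3% of probe sets lower without overlap. Nothing is read from these counts, since Eef1a1 entered the list through this comparison. Leaving out either loaded control or loaded healing replicate 1 took the 3 calls to 0, and leaving out loaded healing replicate 2 took them to 1.

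In unloaded against loaded healing, 2 of the 10 rose, Eef1a1 rc_AI008852_at and Eef2 rc_AI178750_at, and 0 fell. Over all probe sets 0.763% were called higher and 0.858% lower. The median member difference was 0.38 against 0.06 over all probe sets, and 5 members were higher without overlap against 21.3% of all. Leaving out any array of the 2 groups compared took the calls to 0. Again nothing is read from the count, for the same reason.

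In unloaded against loaded control, 4 of the 10 fell and 0 rose, against 6.22% called lower and 0.591% called higher over all. The 4 were Eef1a1 M81088_at and the Eef2 probe sets rc_AI178750_at, rc_AA892801_at and rc_AA892801_g_at. They stand for 2 genes, and the last 2 share their source. No conclusion is drawn from the count, since Eef1a1 was chosen by values that include loaded control. The median member difference was -0.79 while that over all probe sets was 0.23, and 5 members were lower and 1 higher without overlap, against 17.2% and 34.0%. Without loaded control replicate 1, loaded control replicate 2 or unloaded control replicate 1, the count was 2. Eef2 rc_AI178750_at passed in each of the 8 fits that left out an array and in each of the 11 other settings run.

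In unloaded healing against unloaded control, 2 of the 10 rose, M81088_at and rc_AI178750_at, and 0 fell, against 6.41% and 1.05% over all. The median member difference was 0.05 against -0.23, and 3 members were higher and 3 lower without overlap, against 18.7% and 33.5%. This comparison and the former share the unloaded control arrays, whose values are the low ones. No conclusion is drawn from this count either, since Eef1a1 was chosen by values that include unloaded healing.

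Unloaded healing against loaded control, which uses neither loaded healing nor unloaded control, gave 0 calls among the 10. Of all probe sets 4 passed with limma in either direction, or 0.0763%, and 291 had an unadjusted p below 0.05, among them 1 member, Eef2 rc_AA892801_at. The count of members stayed at 0 in each of the 12 other settings run and in each of the 8 fits that left out an array. Of the members, 5 were lower without overlap, against 14.6% of all probe sets, with a median of -0.43 against 0.01.

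**Figure D3:**
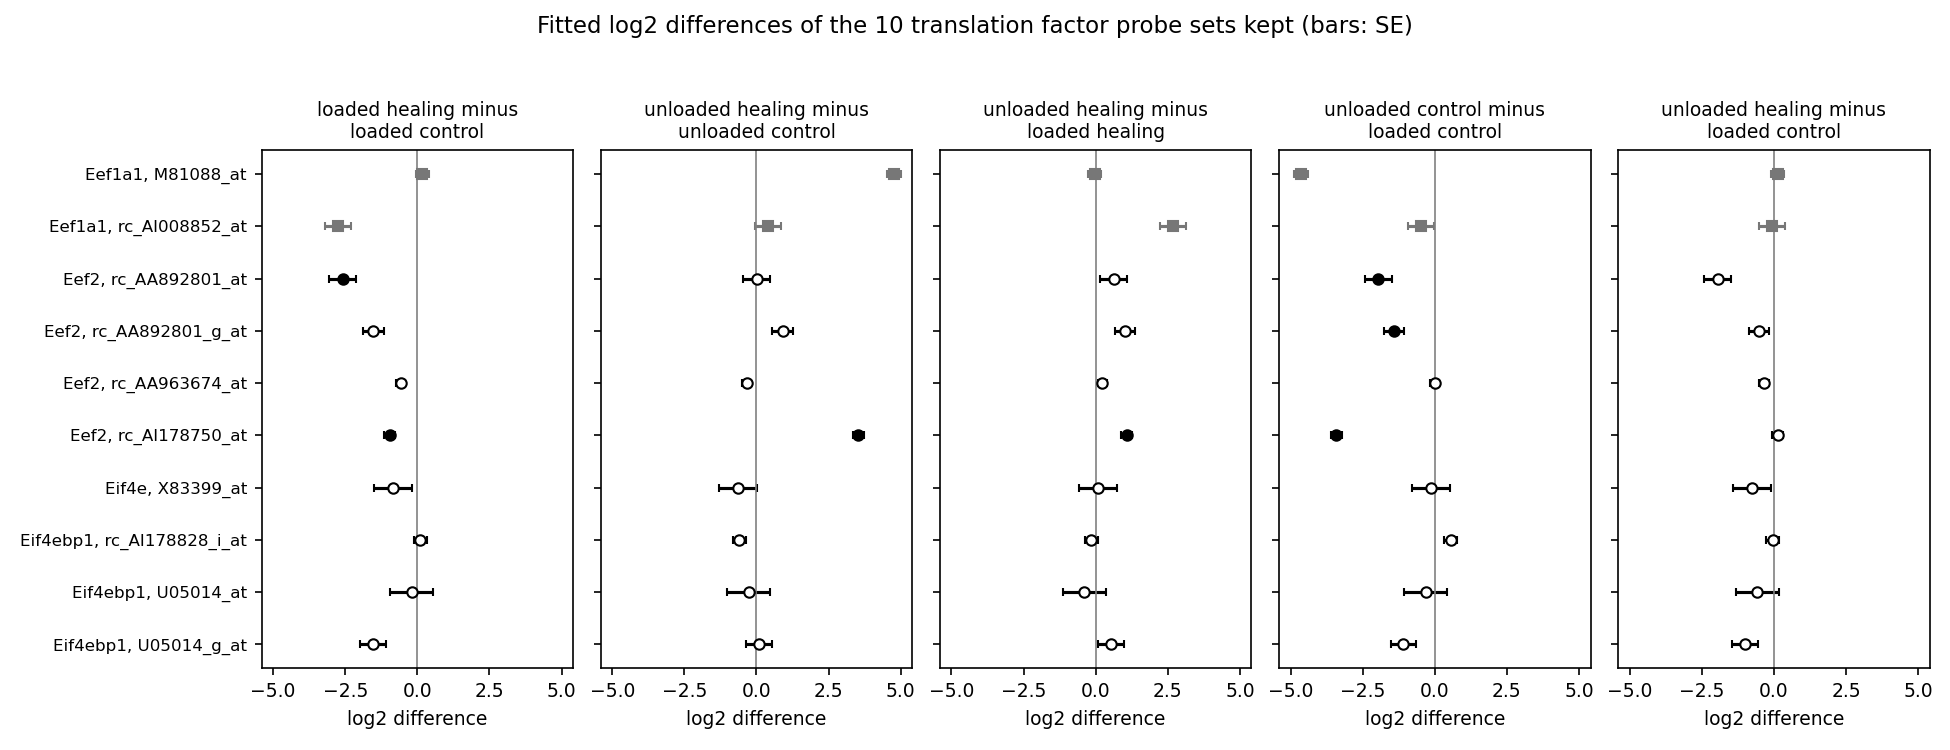
Fitted log2 differences between groups for the 10 probe sets that passed the filter, with bars giving the standard error; filled circles passed an adjusted p of 0.05, open circles did not, and the grey squares of Eef1a1 carry no test. Eef1a1 M81088_at and Eef2 rc_AI178750_at move by -4.64 and -3.41 in unloaded against loaded control. In loaded healing against loaded control they move by 0.17 and -0.95, and in unloaded against loaded healing by -0.04 and 1.08. The differences of unloaded healing from loaded control carry no filled circle.

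The interaction subtracts the healing effect in loaded rats from that in unloaded rats. That effect is injury against sham surgery in loaded rats, but injury against no surgery in unloaded rats. Sham surgery and loading therefore cannot be told apart in it. The interaction passed on 2 probe sets of Eef2, both higher, against 4.52% of all probe sets called higher and 0.324% lower. The interaction was 4.49 ± 0.26 for Eef2 rc_AI178750_at (limma adjusted p = 1.89e-06) and 2.42 ± 0.50 for Eef2 rc_AA892801_g_at (0.0167). The unloaded controls enter each value. The call of rc_AA892801_g_at ended without loaded control replicate 1, loaded healing replicate 1 or 2, or unloaded healing replicate 1 (adjusted p from 0.0656 to 0.0805), with spike-in scaling (0.0978) and without an intensity trend (0.0870). Eef2 rc_AA892801_at, at 2.59 ± 0.66, did not pass (0.0616), but passed with 4 of the 9 other settings that gave it a value (0.0174 to 0.0421). Eef1a1, whose loaded healing values chose it and enter here, is given without a test, at 4.60 ± 0.33 on M81088_at and 3.16 ± 0.64 on rc_AI008852_at. The latter was 2.67 with spike-in scaling and 2.72 to 3.61 without 1 array.

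Other translation factors were read from a list of names. Of its 66 initiation, elongation and termination factor genes, 20 were on the array and 17 passed the filter, each taken at its brightest probe set. For injury in loaded rats 0 passed with limma, with 4 at an unadjusted p below 0.05 and a median of 0.30 against -0.03 over all probe sets. For unloading among healing ligaments 0 passed, with 2 at an unadjusted p below 0.05 and a median of -0.28 against 0.06. Over all 5244 probe sets, 614 had such a p for injury in loaded rats and 574 for unloading among healing ligaments. For unloading among controls 2 of the 17 fell and 0 rose, against 6.22% and 0.591% of all probe sets. For healing among unloaded rats 1 rose and 0 fell, against 6.41% and 1.05%. In the interaction 2 were higher and 1 lower, against 4.52% and 0.324%. For unloaded healing against loaded control 0 passed, also unadjusted. Other probe sets of these genes were left out of the counts and can disagree. For Eif4a2, the uncounted U64705cds_i_at read 102.7 and 176.6 in loaded healing and 132.5 and 97.8 in unloaded control, against 389.5 to 603.3 elsewhere. The counted one, U64705cds_f_at, read 752.2 and 1175.8, and 869.2 and 1243.1, in those groups, against 587.2 to 1427.2.

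Eef1g, the gamma subunit of elongation factor 1, read 2906.6 and 2555.4 in loaded control, 2761.9 and 2685.0 in loaded healing, 301.5 and 299.7 in unloaded control, and 2854.3 and 2592.3 in unloaded healing. The unloaded controls lay apart at the bottom and the other 3 groups overlapped. Unloaded control fell by 3.00 ± 0.22 from loaded control (limma adjusted p = 6.77e-06), and unloaded healing rose by 3.00 ± 0.22 from unloaded control (6.27e-06). The arrays that were low are those on which Eef1a1 M81088_at was low.

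Eif5b, which joins the ribosomal subunits at the end of initiation, read 2470.6 and 2635.3 in loaded control, 1444.5 and 828.8 in loaded healing, 1097.7 and 1133.6 in unloaded control, and 1983.4 and 2757.2 in unloaded healing. Loaded healing and unloaded control were both low, and they overlapped. Unloaded control fell by 1.16 ± 0.30 (limma adjusted p = 0.0457), a call that ended without any single array of the control groups and without unloaded healing replicate 2. It also ended with spike-in scaling (0.152), without an offset (0.0509), without a filter (0.0888) and without an intensity trend (0.1496). Loaded healing differed from loaded control by -1.19 ± 0.30 (0.0965), and the interaction was 2.22 ± 0.42 (0.00973), a call that ended with spike-in scaling (0.117) and without an intensity trend (0.0716).

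Eif3d, a subunit of the initiation factor that binds the small ribosomal subunit, went the other way. It read 213.7 and 240.7 in loaded control, 1055.5 and 806.8 in loaded healing, 288.8 and 415.8 in unloaded control, and 170.2 and 172.8 in unloaded healing. The loaded healing arrays were the high ones, apart from the other 6. Loaded healing differed from loaded control by 1.83 ± 0.46 (limma adjusted p = 0.0962) and unloaded from loaded healing by -2.16 ± 0.46 (0.0523), neither of which passed. The latter passed with spike-in scaling (0.0218) and with an offset 4 times as large (0.0327). The interaction passed at -2.68 ± 0.65 (0.0437) and ended in each of the 8 fits that left out an array (adjusted p from 0.0819 to 0.185), and in 5 other settings (0.0502 to 0.0704).

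**Figure D4:**
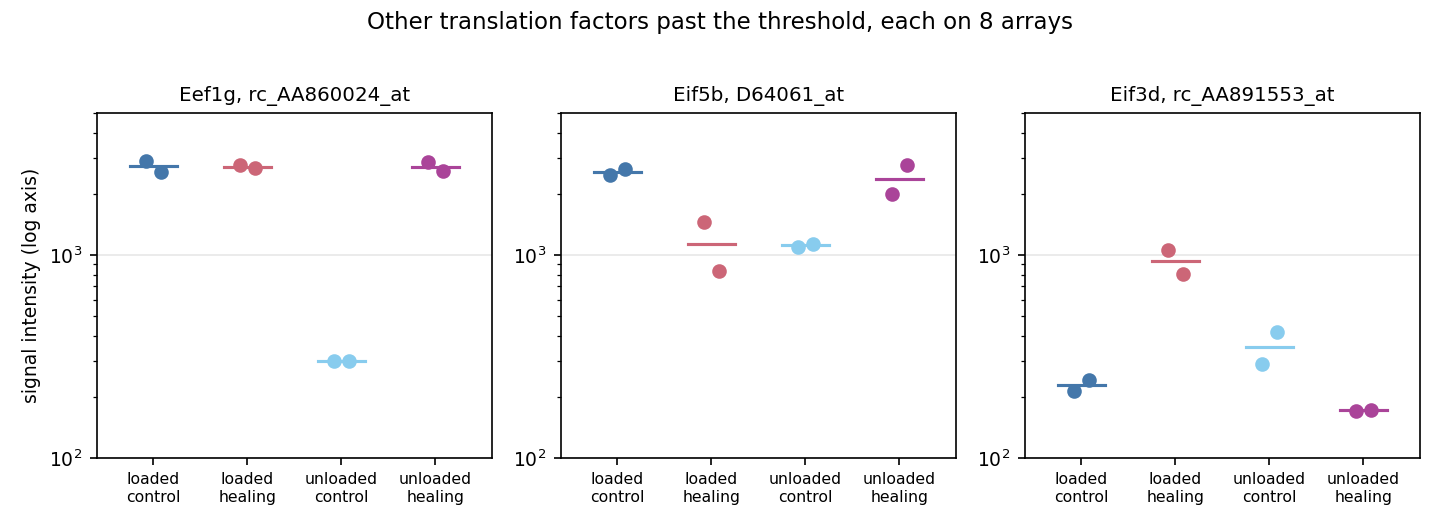
Signal intensity (log axis) of Eef1g, Eif5b and Eif3d in the 4 groups; points are single arrays and lines are means of 2 arrays. Eef1g is low at 301.5 and 299.7 on the unloaded controls, and Eif3d is high at 1055.5 and 806.8 in loaded healing.

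Regulators of translation included 1 gene that passed. Of 48 listed kinases, phosphatases and mTOR pathway genes, 25 were on the array and 18 passed the filter, each taken at its brightest probe set. Other probe sets of a gene were not counted and can disagree. For Rheb the brightest read 1070.6 and 1468.1 in unloaded control against 484.4 to 775.0 elsewhere. Its rc_AI009605_at read 158.9 and 37.0 there against 411.6 to 819.6. Calm2, a calmodulin gene whose product activates the kinase of eEF2, was the sole call, so 1 of 18 fell among controls against 6.22% of all probe sets, and 1 rose in unloaded healing against 6.41%. It read 332.5 and 304.7 on the unloaded controls and 1151.3 to 2007.6 on the other 6 arrays. Unloaded control fell by 1.84 ± 0.27 from loaded control (limma adjusted p = 0.00139), and unloaded healing rose by 1.83 ± 0.27 from unloaded control (0.00140). Mlst8, a subunit of both mTOR complexes, read 1388.4 and 1089.4 in loaded control and 301.0 and 436.6 in loaded healing, a difference of -1.64 ± 0.41 (0.0946). It read 629.3 and 389.6 in unloaded control and 410.0 and 341.6 in unloaded healing, so loaded control lay apart above all other groups. The second Mlst8 probe set, AF051155_g_at, missed the filter and read 79.2 to 163.8 over all arrays. Tsc2, which restrains mTOR, read 174.0 and 923.9 in loaded control and 250.0 and 186.3 in loaded healing (-0.82 ± 0.74, adjusted p = 0.795), a sign that turned without loaded control replicate 2. Counts at an unadjusted p below 0.05 were 2 for injury in loaded rats, 3 for unloading among healing ligaments, 1 for unloaded healing against loaded control and 2 for the interaction, each with 0 adjusted calls. Over all 5244 probe sets those counts were 614, 574, 291 and 678.

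Cytosolic ribosomal protein genes, whose mRNAs share the pyrimidine tract of the Eef1a1 and Eef2 mRNAs, numbered 39 after the filter. Of these 32 fell and 0 rose in unloaded against loaded control, against 6.22% and 0.591% of all probe sets, with a median of -3.03 against 0.23. In unloaded healing against unloaded control 32 rose and 0 fell, against 6.41% and 1.05%, and in the interaction 31 were higher and 0 lower, against 4.52% and 0.324%. For injury in loaded rats 1 rose and 6 fell, against 1.03% and 0.992%, among them Rps10 at -1.85 ± 0.25 (limma adjusted p = 0.00417). With spike-in scaling that split turned to 4 higher and 1 lower, without an intensity trend 0 passed, and median centring or no filter gave 0 higher and 4 lower. The calls numbered 3 without loaded control replicate 1 or loaded healing replicate 1, 4 without loaded healing replicate 2 and 1 without loaded control replicate 2. Rps10 lost its call without an intensity trend (0.0520) and without loaded control replicate 2 (0.0515). For unloading among healing ligaments 6 rose and 0 fell, against 0.763% and 0.858%, with 3 under spike-in scaling and 0 without an intensity trend. Unloaded healing against loaded control gave 0 calls with limma, and 0 at an unadjusted p below 0.05.

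The probe sets closest to the members over the 8 arrays were named by Pearson correlation of log2 signal, as a description. The 8 points share the 2 unloaded control arrays that stand apart, and each correlation is across arrays of all 4 groups. For Eef1a1 M81088_at the closest were Oaz2 (r = 0.9983), Eef1g (0.9981) and Rpl11 (0.9981), and for Eef2 rc_AI178750_at they were Rpl11 (0.990), Sparc (0.9865) and Rpl27a (0.985). For Eef1a1 rc_AI008852_at they were Nbl1 (0.962), Ccng1 (0.9604) and Stxbp5 (0.9442). Nbl1, a secreted BMP antagonist, read 158.6 and 482.8 in loaded healing and 1045.4 to 2201.2 on the other 6 arrays. For Eef2 rc_AA892801_at the closest was another member, Eif4ebp1 U05014_g_at (0.9437), and for Eef2 rc_AA963674_at it was Cox8a (0.967), a subunit of cytochrome oxidase.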

How the data were processed

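The authors deposited 1 linear signal intensity for each of 8799 probe sets on each of 8 arrays, and 0 columns went unused. The 2% trimmed mean lay between 500.26 and 500.58 on each array, so the values had been scaled, and the software is not given in the sources used here. Symbols are those of the platform's annotation, and 6994 of 7018 probe sets with 1 symbol matched RefSeq by identifier. After removing 59 control probe sets, log2(intensity + 45.8) was taken (the offset is the 10th percentile of all values), and the lowest 40% by mean were removed. limma 3.58.1 (R 4.3.3) fitted 1 mean per group to all 8 arrays, with 4 residual and 5.81 prior degrees of freedom, an intensity trend, two-sided tests and Benjamini-Hochberg adjustment within each contrast over 5244 probe sets at 0.05. The fit was checked on simulated data. The number of arrays limits the precision.

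The members and lists were chosen with earlier results of these data known. All member probe sets are named; from each list, up to 4 genes past the threshold per contrast with the largest change (2 for ribosomal genes), or 2 given as values where none passed, of which the text gives some; and the 3 probe sets most like a member. Alternatives were other normalizations, offsets, filters, variance priors and sample sets, a replicate block, and leaving out each array. Same-numbered arrays are not paired by the labels. The correlations of their deviations ran from 0.159 to 0.204 among loaded control, loaded healing and unloaded healing. Pairs with unloaded control gave 0.000779 to 0.0144. Outside unloaded control, array medians were 238.7 to 250.8 for replicate 1 and 280.1 to 286.2 for replicate 2. The cause of this difference by replicate number was not tested.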

Additional observations from a re-analysis of the deposited data

Results flagged for a closer look

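Among the members and the other translation factors, the interaction term of the limma fit passed for 5 probe sets. It sets injury against no surgery in unloaded rats beside injury against sham surgery in loaded rats. Sham surgery and loading cannot be told apart in it, and the unlike unloaded control arrays enter each value. The difference was 4.49 log2 units for Eef2 rc_AI178750_at (adjusted p = 1.89e-06), 2.42 for Eef2 rc_AA892801_g_at (0.0167), 3.00 for Eef1g (0.000139), 2.22 for Eif5b (0.00973) and -2.68 for Eif3d (0.0437). For Eef1a1 the values were 4.60 on M81088_at and 3.16 on rc_AI008852_at. They are a description with no test, since Eef1a1 was chosen by loaded healing values that enter them. On Eef1a1 M81088_at, Eef2 rc_AI178750_at and Eef1g the unloaded control arrays were the lowest, apart from the other 6. On Eef1a1 rc_AI008852_at and Eif3d the loaded healing arrays were the ones apart.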

How the results depend on the processing

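With Eef1a1 counted as a description, the members' counts of calls were 3 for injury in loaded rats, 2 for healing in unloaded rats, 2 for unloading in healing, 4 for unloading in controls, 0 for unloaded healing against loaded control and 4 for the interaction. Leaving out 1 array gave 0 to 4, 2 to 3, 0 to 2, 2 to 4, 0 to 0 and 2 to 4. Spike-in scaling gave 1 for injury in loaded rats, 1 for unloading in healing, 2 for unloading in controls and 2 for the interaction. Quantile normalization gave 4 for healing in unloaded rats (2 higher, 2 lower) and 7 for the interaction (5 higher, 2 lower). For unloading in healing, median centring gave 1, a fit of only the groups compared 1, and no intensity trend 0. The cause was not tested.

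Reversed values concern probe sets that did not pass. Eef2 rc_AA963674_at turned to -0.26 (unloading in healing) and -0.36 (interaction) under spike-in scaling, and to 1.07 (unloading in controls) and -0.84 (interaction) under quantile normalization, the last pair past the threshold. Leaving out 1 array, Eif4e in unloading in healing ranged from -0.67 to 0.85, and Tsc2 in injury from -1.89 to 0.25. Eif4ebp1 U05014_at ranged from -1.25 to 0.87 (injury), -1.02 to 0.48 (healing in unloaded rats), -1.14 to 0.36 (unloading in healing), -1.37 to 0.75 (unloading in controls) and -1.64 to 0.47 (unloaded healing against loaded control). Eef1a2 has no alternatives, being below the filter.

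With the replicate block the member counts were 3, 2, 2, 4, 0 and 4, as without it, and all calls were 123, 443, 102, 393, 7 and 270 against 106, 391, 85, 357, 4 and 254; among named genes only the Eif3d interaction lost its call (adjusted p = 0.0547). Over the other settings these all-probe-set counts ran from 29 to 126, 309 to 628, 16 to 137, 295 to 590, 0 to 7 and 221 to 330. Spike-in scaling moved the median of all probe sets from -0.03 to 0.34 (injury in loaded rats), -0.23 to -0.40 (healing in unloaded rats), 0.06 to -0.40 (unloading in healing) and -0.16 to -0.70 (interaction). It changed the calls higher and lower from 54 and 52 to 84 and 22, from 336 and 55 to 287 and 77, from 40 and 45 to 18 and 119, and from 237 and 17 to 184 and 48. Quantile normalization changed them from 31 and 326 to 205 and 385 for unloading in controls, from 336 and 55 to 390 and 238 for healing in unloaded rats, and from 237 and 17 to 251 and 79 for the interaction.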
